A study of Mus musculus with 12 samples.

Results

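Acetyl and methyl groups on histone tails are written and erased by a small set of enzymes, and the open chromatin at 10 genes of this machinery is described here in mouse aortic endothelial cells, which line the vessel wall. The genes are the acetyltransferase genes Ep300, Crebbp, Kat2a, Kat2b and Kat6a, the deacetylase genes Hdac1 and Hdac3, the methyltransferase genes Ezh2 and Dot1l, and Bahcc1. The protein of Bahcc1 is not an enzyme. It carries a BAH domain, a fold that binds chromatin, and is known as a reader of methylated histone H3 lysine 27. A peak of open chromatin was given to one of these genes when that gene's span was the nearest of 21631 protein-coding gene spans and lay within 100 kb. Across 4 peak lists merged into 48003 regions, 32 of the 41492 regions given to any gene belonged to these genes. The 10 genes were chosen by values of the same peak lists, Dot1l, Bahcc1 and Kat6a among them standing out for a start or end peak in 1 list only. Presence and strength of their peaks are therefore a description, and nothing is supported with them.

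Acetyltransferases neutralise lysines on histones, and acetylated lysine 27 of histone H3 marks active promoters and enhancers. Deacetylases remove the mark within corepressor complexes. Methyltransferases act both ways: EZH2, in Polycomb repressive complex 2, methylates lysine 27 of histone H3 at silenced genes, whereas DOT1L methylates lysine 79 within transcribed genes. In ATAC-seq a transposase inserts adapters into accessible DNA, so that a peak at a gene start marks accessible chromatin there. It measures neither the transcript nor the enzyme.

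The study asked, by its title, about the offspring of mothers fed a high-fat diet. Its 12 samples comprise 8 ATAC-seq samples, 2 in each of 4 diet groups, and 4 H3K27ac samples that were not analysed here. Groups are named by the diet of the mothers (M) and the offspring (O), CD or WD in the labels: CDM-CDO had CD in both generations, WDM-CDO had WD mothers and CD offspring, CDM-WDO had CD mothers, and WDM-WDO had WD in both. In both WDO groups the offspring were given WD again for 4 weeks before their cells were taken. Mouse strain, genotype, sex and age were not given in the sources used here, nor was the number of animals behind a sample. Peak names in both CDO lists carry the tag 08w and those in both WDO lists the tag 12w; offspring diet cannot be told apart from whatever the tags denote.

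Each group had 1 peak list, so there was no replicate spread, no test was possible and no difference below carries a p-value. The lists held 18962 to 28319 peaks. Read numbers at peaks differed between them. The reads piled up at peak summits were recovered from the deposited values. Their medians were 36, 38, 31 and 39 in the lists CDM-CDO, WDM-CDO, CDM-WDO and WDM-WDO. At strong shared peaks the reads above background in WDM-CDO were 1.48 times those in CDM-CDO, and those in WDM-WDO were 1.41 times those in CDM-WDO (medians). The lists for WD mothers thus had more reads at strong shared peaks in both offspring diets. Genome background reads were closer to each other, at 4.84, 5.59, 5.49 and 6.08 in CDM-CDO, WDM-CDO, CDM-WDO and WDM-WDO. The parts of depth and of signal over background in these differences were not tested. A region of the same accessibility could pass the calling threshold in the lists for WD mothers and miss it in the others. Intervals on reads are exact Poisson 95% intervals and those on shares are Wilson 95% intervals; both cover counting error only. The defining endothelial marker genes Cdh5, Pecam1, Tek, Emcn and Vwf had no peak within 1 kb of a start or end in any list; 4, 5, 4 and 3 of the 10 endothelial markers had one in CDM-CDO, WDM-CDO, CDM-WDO and WDM-WDO. Of the 10 white blood cell markers 5, 5, 2 and 8 had one, with summed −log10 q values of 135, 123, 23.4 and 72.2 against 28.7, 65.4, 30.9 and 30.8 for the endothelial list. Of 5 smooth muscle markers 2, 1, 0 and 0 had one, and of 5 fibroblast markers 1, 1, 1 and 2. Myh11 and Cnn1 of the former and Pdgfra, Dcn and Lum of the latter had none in any list. The part of other cell types in the values below was not tested.

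The sequences before 5 of the gene starts are shown because these genes span the range of outcomes: Ep300 and Ezh2 had a start peak in all 4 lists, Dot1l and Bahcc1 in WDM-CDO alone, and Kat2a in none. Each run is the 250 bases that end just before the transcription start, read 5′ to 3′ on the gene's own strand, from RefSeq (GRCm38.p6). Capitals mark matches, on either strand, to the motifs searched.
Dot1l (chr10:80754953-80755202, + strand): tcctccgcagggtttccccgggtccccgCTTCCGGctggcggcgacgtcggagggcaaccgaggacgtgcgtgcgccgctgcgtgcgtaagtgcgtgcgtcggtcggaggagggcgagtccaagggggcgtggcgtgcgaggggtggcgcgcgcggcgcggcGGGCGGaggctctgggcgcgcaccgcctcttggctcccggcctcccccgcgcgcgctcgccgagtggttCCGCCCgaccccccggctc
Bahcc1 (chr11:120232697-120232946, + strand): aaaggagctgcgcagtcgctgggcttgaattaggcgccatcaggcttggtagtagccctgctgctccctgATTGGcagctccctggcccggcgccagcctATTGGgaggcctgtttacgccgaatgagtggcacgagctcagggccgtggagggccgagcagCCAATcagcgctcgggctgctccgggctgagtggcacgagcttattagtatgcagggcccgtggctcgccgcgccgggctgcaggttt
Ezh2 (chr6:47595031-47595280, − strand): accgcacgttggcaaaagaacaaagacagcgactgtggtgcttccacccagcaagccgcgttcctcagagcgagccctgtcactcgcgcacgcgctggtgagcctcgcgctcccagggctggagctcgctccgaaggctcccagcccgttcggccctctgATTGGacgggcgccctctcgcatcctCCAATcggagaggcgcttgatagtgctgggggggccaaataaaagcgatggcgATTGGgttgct
Ep300 (chr15:81585964-81586213, + strand): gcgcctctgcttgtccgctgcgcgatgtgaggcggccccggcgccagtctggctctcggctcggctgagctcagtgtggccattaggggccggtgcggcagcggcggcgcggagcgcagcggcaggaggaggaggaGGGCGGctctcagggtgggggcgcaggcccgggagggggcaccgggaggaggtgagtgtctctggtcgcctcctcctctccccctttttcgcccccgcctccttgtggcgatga
Kat2a (chr11:100712468-100712717, − strand): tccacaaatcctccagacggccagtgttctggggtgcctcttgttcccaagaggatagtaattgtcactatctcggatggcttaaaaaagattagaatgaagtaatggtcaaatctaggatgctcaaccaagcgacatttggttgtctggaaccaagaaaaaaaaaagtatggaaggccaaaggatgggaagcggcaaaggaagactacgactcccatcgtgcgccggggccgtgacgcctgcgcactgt

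The promoter table held 7 of the 10 genes; Kat6a, Hdac1 and Hdac3 had no entry, so their ends are named by coordinate and not by direction of transcription. Motifs were searched on both strands. The GC box of SP1-like factors was read as GGGCGG and the box of the factor NF-Y as CCAAT. Binding motifs of the ETS family were read as CCGGAAG, those of E-box proteins as CACGTG, those of CREB proteins as TGACGTCA, those of the factor YY1 as AAGATGGC, those of AP-1 as TGANTCA and the box of the TATA-binding protein as TATAAA. The motif of NRF1 was also searched. Matches to different motifs did not overlap in the windows printed. In the Dot1l window CCGGAAG began 222 bases before the start and GGGCGG began 88 and 19 bases before it. The Bahcc1 window held CCAAT at 180, 150 and 88 bases before the start, and the Ezh2 window held it at 90, 64 and 11 bases. The Ep300 window had GGGCGG at 114 bases, and the Kat2a window had no match. Of 21045 promoter windows of the same length, 43.1% held GGGCGG, 35.6% CCAAT and 9.08% CCGGAAG, so these matches are common. A match describes letters only and is not a binding site.

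Base composition set Dot1l and Crebbp apart within the group. The Dot1l window was 78.4% G or C with 44 CpG pairs and that of Crebbp 84% with 44, against medians of 55.6% and 10 over all windows. Ep300 had 73.2% and 25 CpG, Bahcc1 65.2% and 19, and Ezh2 63.6% and 23. The Kat2a window had 48.8% and 11, and the 2 windows of Kat2b had 40.8% with 6 and 48.4% with 5. Kat2a and Kat2b were the genes under the median GC share. No list had a peak across their starts, nor across those of Crebbp and Bahcc1, whose GC shares were above the median. The Bahcc1 peak of WDM-CDO ended 2 bp before the start.

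A start peak here is a peak within 1 kb of the RefSeq start, or within 1 kb of either span end for the 3 genes with no promoter entry. Start or end peaks were present at 6, 9, 5 and 6 of the 10 genes in the lists CDM-CDO, WDM-CDO, CDM-WDO and WDM-WDO, in this order. Over all protein-coding genes the shares with such a peak were 49.4%, 52.5%, 41.4% and 48.8%. Ep300, Crebbp, Hdac1, Hdac3 and Ezh2 had one in every list. Kat2b had one in 3 lists, its peak in CDM-WDO lying just outside the window at 1019 bp and that in WDM-WDO just inside at 993 bp. Dot1l, Bahcc1 and Kat6a had one in WDM-CDO alone. With a window of 2 kb this held for Kat6a only, since Bahcc1 then had one in CDM-CDO and CDM-WDO as well and Dot1l in WDM-WDO.

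**Figure D1:**
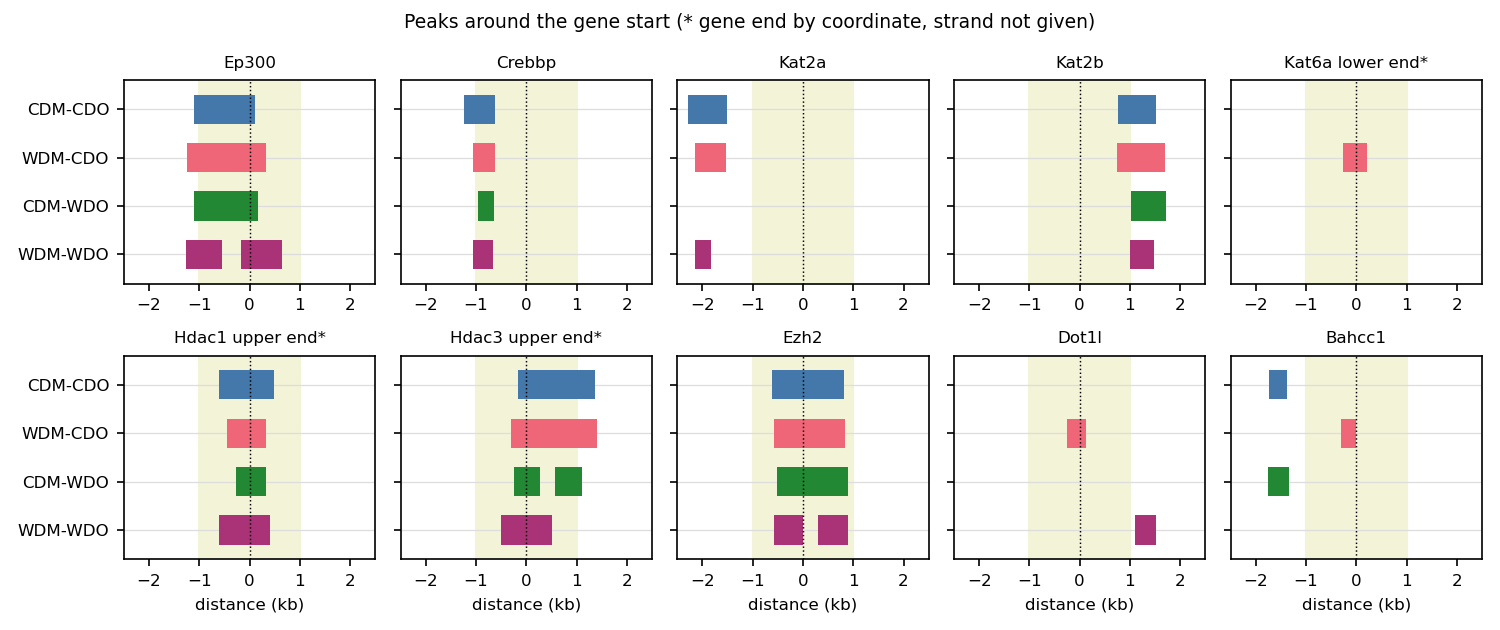
Peaks around the start of each gene in the 4 lists, as horizontal bars from the first to the last base of the peak. The horizontal axis is the distance in kb from the RefSeq start in the direction of transcription, or from the named span end by coordinate for the genes with an asterisk, and the shaded band is the 1 kb window. Ep300, Hdac1, Hdac3 and Ezh2 are covered in every list, and Dot1l, Bahcc1 and Kat6a have a bar in the band only for WDM-CDO.

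EP300 and CREBBP are paired coactivators that acetylate histone H3 at lysine 27. The start peak of Ep300 (chr15:81584941-81586862 over the 4 lists) had 64 summit reads in CDM-CDO against 98 in WDM-CDO, and 66 in CDM-WDO against 88 in WDM-WDO. Its −log10 q, the authors' own significance of a peak within its list, was 21.1, 36.7, 26.6 and 32.8. Reads were higher in both lists for WD mothers, which also had more reads above background at strong shared peaks. At the Ep300 start the reads above background in WDM-CDO were 1.56 times those in CDM-CDO, near the 1.48 of strong shared peaks. In WDM-WDO the region was called as 2 peaks, from 1273 to 556 bp before the start and from 168 bp before it to 648 bp after it, while the other lists held a single peak across the start. Ep300 had a pair of weaker regions in WDM-CDO alone, with 29 reads 46270 bp before its span (chr15:81539551-81539939) and 20 reads near the far end of the gene (chr15:81649480-81650027).

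Crebbp had its start peak upstream of the RefSeq start used here. The nearer edge was 631, 621, 644 and 665 bp before that start in CDM-CDO, WDM-CDO, CDM-WDO and WDM-WDO (chr16:4214025-4214633 over the lists). The gene span reaches upstream of that start, to position 4213957, and the region lay only 68 bp outside the span. Summit reads were 67, 83, 70 and 65, the narrowest range among the start peaks present in all lists. In WDM-WDO the reads above background were 0.913 times those in CDM-WDO, where regions of like strength had a median of 1.48 and a middle 50% from 1.26 to 1.71. The peak was also narrow for its strength, at 599, 449, 317 and 402 bp: only 9.65%, 2.12%, 0.498% and 3.82% of peaks of like −log10 q in the same list were narrower. The sequence window of Crebbp, which ends at the start, is not overlapped by it. Inside the gene Crebbp had 3 regions in WDM-WDO alone with 24, 22 and 26 reads, and 1 in CDM-CDO alone with 16 reads. All 4 were weak, the strongest with a −log10 q of 4.65.

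KAT2A (GCN5) and KAT2B (PCAF) are related acetyltransferases of the SAGA and ATAC coactivator complexes. No peak in any list was given to Kat2a (chr11:100704746-100712485), a short gene of 7740 bp. The peak nearest its start was 1520 bp away in CDM-CDO against 1525 bp in WDM-CDO, and 9713 bp in CDM-WDO against 1838 bp in WDM-WDO. These peaks were given to the neighbouring genes Hspb9 and Dhx58.

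Kat2b (chr17:53566774-53672721) had its region of most summit reads in every list beside the start, at chr17:53567710-53568687, from 739 to 1716 bp after it. Its summit reads were 63 (48.4 to 80.6) in CDM-CDO against 80 (63.4 to 99.6) in WDM-CDO, and 31 (21.1 to 44.0) in CDM-WDO against 46 (33.7 to 61.4) in WDM-WDO. The WDO lists were lower than the CDO lists of the same mothers, and the intervals of neither pair overlapped. The ratio of reads above background was 0.439 for CDM-WDO against CDM-CDO, where regions of like strength had a median of 0.753. For WDM-WDO against WDM-CDO it was 0.536 against a median of 0.783. A second region of Kat2b, 20.7 kb after the start (chr17:53587071-53588277), was in all lists with 38, 78, 29 and 42 reads. Its −log10 q of 35.4, 6.53 and 11.5 in WDM-CDO, CDM-WDO and WDM-WDO was above that of the region beside the start (27.7, 4.74 and 9.88), while in CDM-CDO, at 11.3, it was below. There WDM-CDO stood highest, at 2.18 times CDM-CDO in reads above background against a median of 1.34 for like regions. A weaker region 3.3 kb after the start was in the CDO lists only (31 and 48 reads), and another in WDM-WDO only (21 reads).

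KAT6A (MOZ) is the acetyltransferase of a complex with BRPF proteins and is known for its part in blood stem cells. Its lower-coordinate end (chr8:22859176-22859660, 485 bp) held a peak in WDM-CDO alone, with 53 summit reads (39.7 to 69.3) over a local background of 12.2 reads and a −log10 q of 15.1. Scaled by the median ratio at strong shared peaks, such a region would have had 36.8 reads in CDM-CDO where a call needed 23, and 43.6 in WDM-WDO where a call needed 27. A second Kat6a region, 20234 bp below the span (chr8:22838450-22839208), had 31, 26 and 39 reads in the lists WDM-CDO, CDM-WDO and WDM-WDO. CDM-CDO thus held no region of Kat6a.

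HDAC1 is a catalytic subunit of the Sin3, NuRD and CoREST complexes. Its one region covered the upper-coordinate end of the gene in every list (chr4:129542045-129543136), with 76, 131, 78 and 102 reads and −log10 q of 32.6, 69.8, 32.9 and 45.2 in CDM-CDO, WDM-CDO, CDM-WDO and WDM-WDO. Its reads were the highest among the start and end peaks of the 10 genes in each list, although in CDM-CDO the Ezh2 start had 75 and in WDM-CDO the Dot1l start had 126. HDAC3 works in the NCoR and SMRT corepressor complexes. The upper-coordinate end of Hdac3 on chromosome 18 was covered in all lists by a weaker region, with 48, 73, 38 and 64 reads and −log10 q of 11.4, 22.1, 5.77 and 17.8. That region also lies in the span of the neighbouring gene Rell2 and was counted for Rell2, whose midpoint is nearer, so Hdac3 has none of the 32 regions.

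EZH2 is the methyltransferase of Polycomb repressive complex 2. The Ezh2 start (chr6:47594136-47595642) was open in every list, with 75 summit reads in CDM-CDO against 123 in WDM-CDO, and 55 in CDM-WDO against 83 in WDM-WDO. WDM-CDO was highest and CDM-WDO lowest, and the 4 lists stood in the same order as by reads above background at strong shared peaks; by median summit reads WDM-WDO was the highest list. Its peak covered the sequence window printed above and reached 812 to 894 bp into the gene. The peak was broad, wider than 90.8%, 87.4% and 96.0% of like peaks in the first 3 lists. In WDM-WDO the region was split into 2 peaks, as at Ep300, one of 586 bp at the start with 83 reads and one of 587 bp inside the gene with 59 reads. Ezh2 had no other region, so that 1 region served a gene of 64997 bp.

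**Figure D2:**
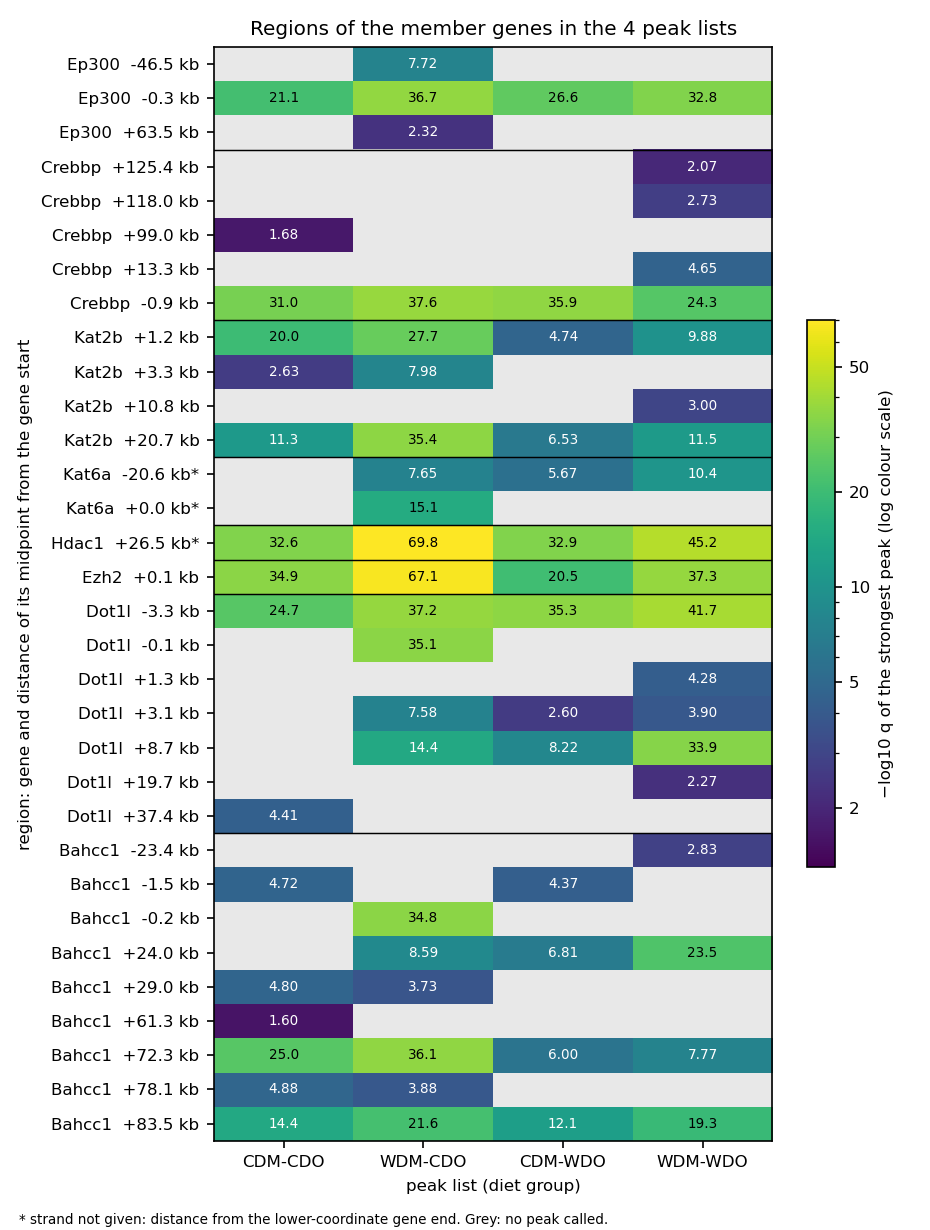
All 32 regions of the 8 genes that had any (rows, by gene and by the middle of the region in kb from the start, or from the lower-coordinate end where marked with an asterisk) in the 4 lists (columns). The number in a cell and its colour both give the −log10 q of the strongest peak of that list in the region. A grey cell without a number is a list with no peak there. The 9 rows filled in every list include the starts of Ep300, Crebbp and Ezh2 and the end of Hdac1.

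DOT1L is the methyltransferase of histone H3 lysine 79. Its gene (chr10:80755101-80795461) had 7 regions, the densest set of the group at 17.3 regions per 100 kb of span. The region of most reads lay upstream, 2674 to 3966 bp before the start (chr10:80751237-80752529), and was in every list with 75 (59.0 to 94.0), 119 (98.6 to 142), 100 (81.4 to 122) and 127 (106 to 151) reads in CDM-CDO, WDM-CDO, CDM-WDO and WDM-WDO. CDM-CDO was lowest, and its interval overlapped only that of CDM-WDO. In CDM-WDO the reads above background were 1.35 times those of CDM-CDO, where like regions had a median of 0.742 and a middle 50% from 0.610 to 0.904. In WDM-WDO they were 1.07 times those of WDM-CDO against a median of 0.772.

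At the Dot1l start itself WDM-CDO had a peak of 387 bp (chr10:80754946-80755332) with 126 summit reads (105 to 150), a fold enrichment of 4.05 and a −log10 q of 35.1. It ran from 257 bp before the start to 129 bp after it, over the whole printed window, with its summit 93 bp before the start, next to the GGGCGG that begins at 88 bp. The local background there was 30.4 reads against a genome background of 5.59, so the peak stood on a stretch that already had many reads. Peaks of like −log10 q had a median width of 863 bp, and 1.36% of them were narrower. Scaled the same way and with the same limits as at Kat6a, the region would have had 86.1 reads in CDM-CDO, where a call needed 46. In WDM-WDO it would have had 101, where a call needed 54. The nearest peak to the start was 3006 bp away in CDM-CDO, 2492 bp in CDM-WDO and 1107 bp in WDM-WDO. The last of these, at chr10:80756310-80756728, had 63 reads but a fold enrichment of 1.99, on a local background of 31.1 reads.

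Inside Dot1l, a region 8213 to 9226 bp after the start (chr10:80763416-80764429) was in WDM-CDO, CDM-WDO and WDM-WDO with 58, 44 and 100 reads and −log10 q of 14.4, 8.22 and 33.9. WDM-WDO was the highest, with reads above background 2.44 times those of CDM-WDO against a median of 1.56 for like regions, and 1.79 times those of WDM-CDO against a median of 0.857. A region 2488 to 3696 bp after the start was in the same 3 lists with 56, 37 and 56 reads. Regions near the middle and the far end of the gene were in WDM-WDO (32 reads) and CDM-CDO (38 reads) alone.

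Bahcc1 (chr11:120232870-120292297) had 9 regions, of which 4 lay beyond the far end of its span. The start peak in WDM-CDO (chr11:120232638-120232945) was 308 bp wide, with 98 summit reads (79.6 to 119), a local background of 18.7 reads, a fold enrichment of 5.02 and a −log10 q of 34.8. It ran from 309 to 2 bp before the start and so covered all of the printed window but its last base, with the 3 CCAAT matches inside. Of peaks of like −log10 q, 0.292% were narrower. Scaled the same way and with the same limits, the Bahcc1 start peak would have had 67.2 reads in CDM-CDO, where a call needed 32. In WDM-WDO it would have had 79.1, where a call needed 37. In both lists for CD mothers a weaker peak lay 1337 to 1756 bp before the start (chr11:120231191-120231610), with 36 reads in CDM-CDO and 34 in CDM-WDO. In WDM-WDO the peak nearest the start was 23171 bp away.

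Of the other Bahcc1 regions, the one 72.3 kb after the start (chr11:120304951-120305516), past the end of the span, was in all lists with 70 (54.6 to 88.4), 93 (75.1 to 114), 38 (26.9 to 52.2) and 42 (30.3 to 56.8) reads. The WDO lists were lower than the CDO lists of the same mothers, and neither pair of intervals overlapped. The ratios of reads above background were 0.499 for CDM-WDO against CDM-CDO and 0.411 for WDM-WDO against WDM-CDO, where like regions had medians of 0.741 and 0.786. A region 24.0 kb after the start (chr11:120256713-120257217) had no peak in CDM-CDO and 56, 45 and 80 reads in WDM-CDO, CDM-WDO and WDM-WDO. Its ratio for WDM-WDO against WDM-CDO was 1.47, above the median of 0.866 for like regions. Regions 29.0 kb and 78.1 kb after the start were in the CDO lists only, with 37 and 40 reads, and 33 and 32 reads. The farthest region, 83.5 kb after the start, was in all lists with 47, 64, 43 and 62 reads.

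**Figure D3:**
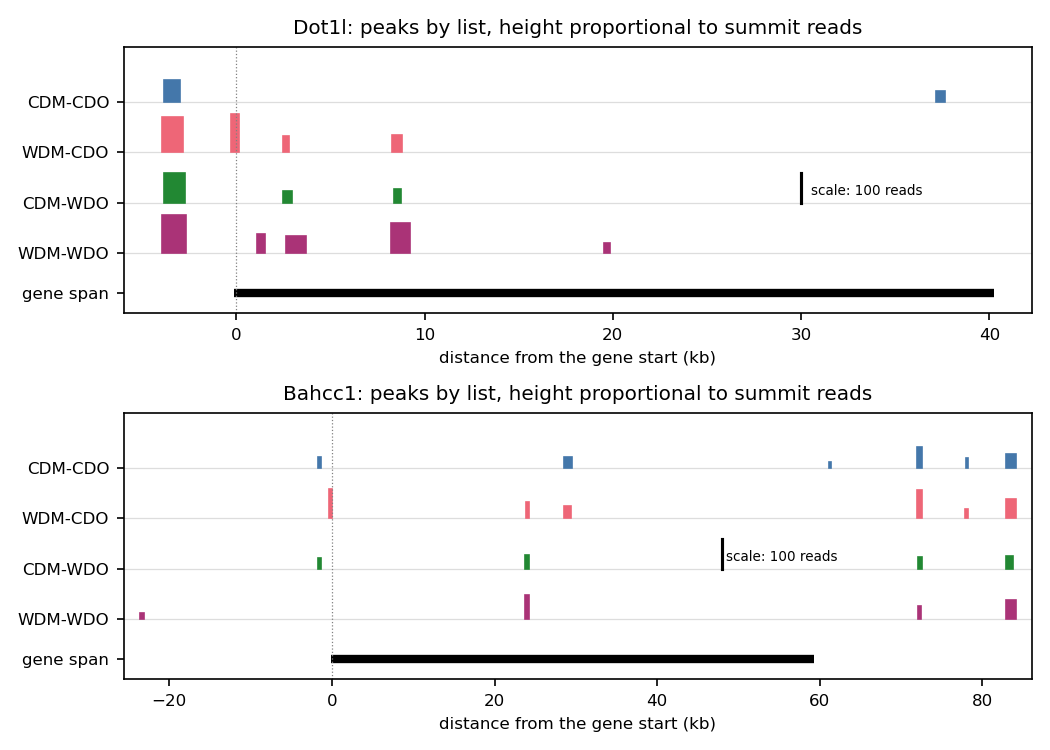
Peaks at Dot1l (top) and Bahcc1 (bottom) by list, over the distance from the gene start in kb; each block spans a peak, its height is proportional to its summit reads (scale bar of 100 reads), and the black bar is the gene span. The block at 0 appears for WDM-CDO alone in both genes, with 126 reads at Dot1l and 98 at Bahcc1, and the upstream Dot1l block is present in every list.

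**Figure D4:**
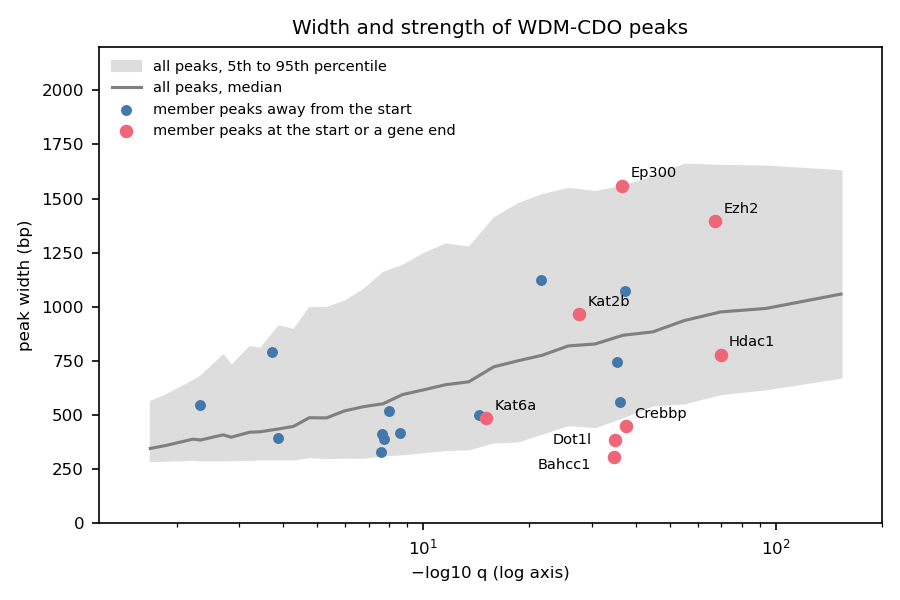
Width in bp (vertical) against −log10 q (horizontal, log axis) of peaks in WDM-CDO: the grey line is the median and the band the 5th to 95th percentile of all peaks, and points are peaks of the 10 genes, with start and end peaks named. Dot1l at 387 bp, Bahcc1 at 308 bp and Crebbp at 449 bp lie below the band, and Ep300 at 1559 bp lies near its upper edge.

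Counted over the 4 lists, 9 of the 32 regions were in every list (28.1%, against 24.6% of all regions) and 15 were in a single list (46.9%, against 50.3%). Another 4 were in 2 lists and 4 in 3 lists (12.5% each, against 14.3% and 10.9%). Of the 8 regions at a start or end, 5 were in every list (62.5%, against 61.4% over all genes), and of the 24 elsewhere 4 were (16.7%, against 9.65%). Apart from the last of them, these shares were close to those of all genes. Of the 32 regions, 5 were in WDM-CDO alone (15.6%, against 16.1% of all regions), 7 in WDM-WDO alone (21.9%, against 17.8%), 3 in CDM-CDO alone (9.38%, against 8.08%) and 0 in CDM-WDO alone (against 8.33%). The 4 regions in 3 lists were all missing from CDM-CDO alone (12.5% of the 32, against 2.27% of all regions): 2 in Dot1l, 1 in Bahcc1 and 1 near Kat6a. No region was shared by the 2 lists for WD mothers alone (against 3.81% of all regions), and 1, the weak peak upstream of Bahcc1, by the 2 for CD mothers alone (3.12%, against 0.395%).

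The maternal diet was compared within CD offspring first. Of the 25 regions of these genes in WDM-CDO or CDM-CDO, 9 were in WDM-CDO only (36%, interval 20.2 to 55.5), where the share of regions given to any gene was 32.4%. Another 4 were in CDM-CDO only (16%, interval 6.40 to 34.7, against 13.8%). Start or end peaks were in WDM-CDO only at 3 genes, Dot1l, Bahcc1 and Kat6a, and in CDM-CDO only at 0; over all genes the shares were 4.9% and 1.79%, and since these genes were chosen with that contrast known nothing is read from the count. In CDM-CDO the expected reads of the 9 regions were 0.911 to 2.10 times those a call needed, 1 of them below. The Bahcc1 start was at the top and the Dot1l start at 1.87, with the limits given for these expected reads above. None of the 4 regions of CDM-CDO was expected in WDM-CDO below the reads needed, the highest being at 1.73 times.

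Within WD offspring, 7 of 21 regions were in WDM-WDO only (33.3%, interval 17.2 to 54.6, against 43.1%) and 1 in CDM-WDO only (4.76%, interval 0.846 to 22.7, against 16%). The added regions were weak, with a median of 24 reads. Scaled by the median ratio at strong shared peaks, they were expected in CDM-WDO at 0.851 to 1.09 times the reads a call needed. Of the 7, 6 were expected below the reads needed, some only just, and why they were not called was not tested. The region in CDM-WDO only was the one upstream of Bahcc1. Kat2b counted as having a start peak in WDM-WDO only, although its region was present in both lists at either side of the 1 kb limit; over all genes 9.53% had a start or end peak in WDM-WDO only and 2.11% in CDM-WDO only. The maternal comparisons in CD and in WD offspring share no list. None of the 3 genes with a start or end peak in WDM-CDO only had one in WDM-WDO.

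The offspring comparisons use the same 4 lists again and are not independent of the maternal ones. With CD mothers, 4 of 20 regions were in CDM-WDO only (20%, interval 8.07 to 41.6, against 21.5%) and 6 in CDM-CDO only (30%, interval 14.5 to 51.9, against 36.4%). The 4 were the regions missing from CDM-CDO alone, and in CDM-CDO they were expected at 1.43 to 2.05 times the reads a call needed. The 6 regions of CDM-CDO were expected in CDM-WDO at 0.821 to 1.07 times the reads needed, 4 of them below. Start or end peaks were in CDM-WDO only at 0 of the 10 genes and in CDM-CDO only at 1, Kat2b, against 1.84% and 9.8% of all genes. With WD mothers, 7 of 28 regions were in WDM-WDO only (25%, interval 12.7 to 43.4, against 25%) and 8 in WDM-CDO only (28.6%, interval 15.3 to 47.1, against 29.7%). The 7 were the same regions as in the comparison with CDM-WDO, and in WDM-CDO they were expected at 1.35 to 1.71 times the reads a call needed. The 8 were expected in WDM-WDO at 0.920 to 2.14 times, 3 of them below. Start or end peaks were in WDM-CDO only at 3 genes and in WDM-WDO only at 0, against 6.25% and 2.61%. With the settings used here, all 8 intervals on region shares held the share of all genes. Other settings moved some shares farther from it. At a −log10 q of at least 5, 50% of 18 regions were in WDM-CDO only against CDM-CDO (23.5% of all regions). In WDM-WDO only against CDM-WDO were 8.33% of 12 (40.6% of all regions). No interval was computed for these shares.

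**Figure D5:**
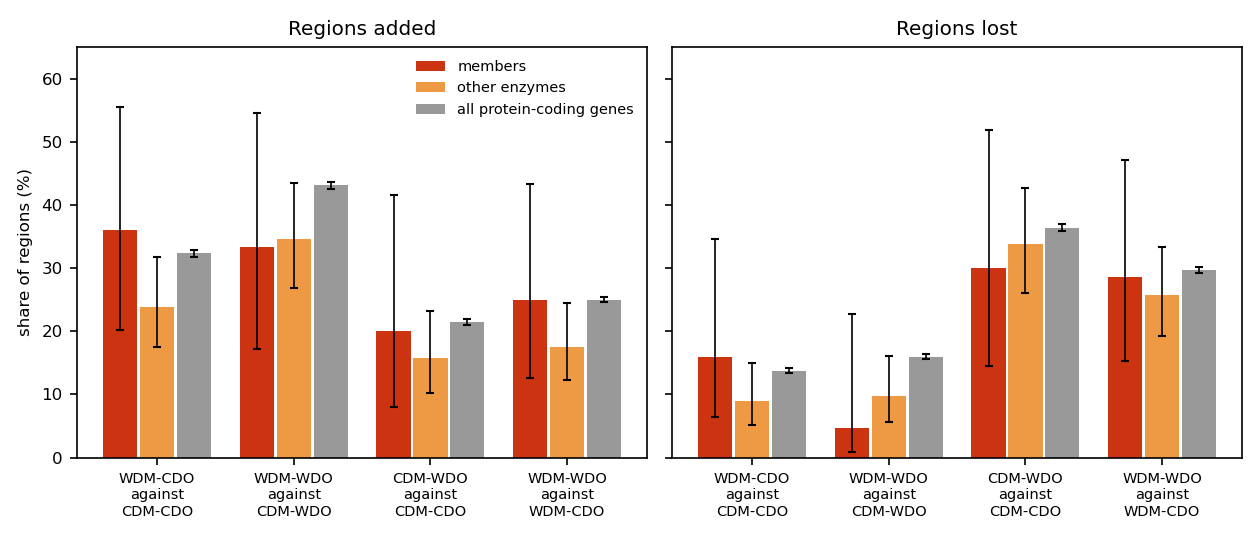
Share of regions (vertical axis, percent) present in the first list only (left, added) or the second list only (right, lost) of each comparison. Bars are for the 10 genes (red), the 65 genes listed as other enzymes (orange) and all protein-coding genes (grey). Bars start at 0 and error lines are Wilson 95% intervals, which cover counting error only. The grey bars lie within the red intervals in all 8 pairs, for example 32.4% against 36% in WDM-CDO against CDM-CDO.

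At regions present in both lists, 48 ratios of reads above background were set beside those of regions of like strength. Being called in both lists is a condition of each ratio, so regions called in 1 list only did not enter. For WDM-CDO against CDM-CDO 4 of 12 ratios lay in the middle 50% of like regions, 5 above and 3 below; for WDM-WDO against CDM-WDO 9 of 13 lay in it, 2 above and 2 below. For CDM-WDO against CDM-CDO 4 of 10 lay in it, 4 above and 2 below, and for WDM-WDO against WDM-CDO 7 of 13, 3 above and 3 below. Over all 48 ratios 50% lay in the middle 50%, the share that like regions have by definition. The 48 ratios are linked, since a region can enter several comparisons of the same 4 lists. That share does not say what the most extreme ratios are. The ratios farthest from their medians between offspring diets were picked from the 48, and whether they exceed the usual spread was not tested. They were the low ones of the Bahcc1 region past its end and the Kat2b region beside its start, and the high ones of the Dot1l regions upstream of the start and 8213 to 9226 bp after it.

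The rest of the histone acetylation and methylation machinery was read from a list of 65 genes, called other enzymes here. The list counts Brpf1 and Brpf3 with the acetyltransferases and Eed and Suz12 with the methyltransferases. The proteins of these genes are subunits of enzyme complexes and not enzymes themselves. Of these 60, 60, 49 and 57 had a start or end peak in CDM-CDO, WDM-CDO, CDM-WDO and WDM-WDO, and 47 had one in all lists, a larger share than over all genes in each list. By class the counts were 9, 9, 6 and 8 of 9 acetyltransferases, 13, 12, 9 and 13 of 14 deacetylases, 25, 25, 22 and 24 of 27 methyltransferases, and 13, 14, 12 and 12 of 15 demethylases. Hdac9, a class IIa deacetylase gene, Ehmt2, for the histone H3 lysine 9 methyltransferase G9a, and Kdm1a, for the demethylase LSD1, had none in any list.

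Start or end peaks in 1 list of a comparison were few for WDM-CDO against CDM-CDO, with 2 of the 65 in the first only and 2 in the second only. Setdb1, for a histone H3 lysine 9 methyltransferase (−log10 q of 11.9), and Kdm5b, for a histone H3 lysine 4 demethylase (3.83), were in WDM-CDO only, and Setd1b (6.24) and Hdac8 (3.15) in CDM-CDO only. Setd1b had a peak in WDM-CDO as well, but 2964 bp away from the start or end. For WDM-WDO against CDM-WDO they were 9 and 1. Those in WDM-WDO only were led by Nsd1, for a histone H3 lysine 36 methyltransferase (38.1), Kdm2a, for a lysine 36 demethylase (31.3), and Ezh1, the paralogue of Ezh2 (16.8). The regions at Nsd1 and Kdm2a were also called in CDM-WDO, where the nearest peak lay 1046 and 1174 bp from the start or end, just outside the 1 kb window. Kdm7a (8.79) was in CDM-WDO only. Its nearest WDM-WDO peak, of another region, lay 1107 bp from the start or end, also just outside the window.

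For CDM-WDO against CDM-CDO, 0 of the 65 were in CDM-WDO only and 11 in CDM-CDO only, led by Kdm2a (26.3), Nsd1 (26.2) and the coactivator gene Ncoa3 (17.6); the regions of the first pair were in CDM-WDO too, outside the window as above. For WDM-WDO against WDM-CDO they were 2 and 5, with Setd1b (8.75) and Hdac8 (4.82) in WDM-WDO only. Ehmt1 (24.9), Kdm7a (20.2) and the coactivator gene Ncoa1 (14.0) led those in WDM-CDO only. For Kdm7a the nearest WDM-WDO peak was again the one at 1107 bp. Over the regions of the 65 genes, 23.9% of 134 were in WDM-CDO only against CDM-CDO and 8.96% in CDM-CDO only. Both were below the shares over all genes.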

How the data were processed

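ATAC-seq peak lists of 4 diet groups were used, 1 per group; the sources used here do not say whether the 2 samples of a group were pooled for it. MACS2 2.2.9.1, Bowtie2 2.4.5, SAMtools 1.13, Trim Galore 0.6.10, deepTools 3.5.4 and FastQC 0.12.1, and the build GRCm38 (mm10), are listed without settings in the submitters' processing notes. The authors deposited for each peak a display score, which was not interpreted, a fold enrichment (a ratio over the local background), and −log10 p and −log10 q values; they are the authors' own, and a rank in lists of different length shows no change. The lowest −log10 q of a list was 1.30 to 1.31.

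Summit reads and local background were worked out from fold and −log10 p with the Poisson rule of MACS2, within a tolerance of 0.0001 for 100% of peaks. Lowest summit reads were 14 to 16 and genome background 4.84 to 6.08 reads, so weaker regions were out of reach. Reads expected in another list were scaled by the median ratio at strong shared peaks, the strongest 10% of regions.

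Peaks on chromosomes 1 to 19 and X were merged at an overlap of at least 1 bp (Python 3.11.15, numpy 2.4.6, scipy 1.17.1, pandas 2.3.3, and the figures with matplotlib 3.10.9). Each region went to the nearest protein-coding span of a RefSeq table (GRCm38.p6) within 100 kb, and inside several spans to the one of nearest midpoint. The table gives spans only, so exons, introns and UTRs are not stated. Starts came from the promoter table, which held 17274 of the 21631 genes. Peaks of like strength, used for the widths, are those of the same list with a −log10 q within 10% of the peak's own value. The scripts were tested on simulated data.

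The members and lists were chosen with earlier results of these data known. All 10 members are named; of the other enzymes, those named are the 3 of highest −log10 q per comparison and direction with a start or end peak in 1 list only, and, chosen after their values were seen, the 3 without any. Alternatives were a −log10 q of at least 5, lists of equal length, an overlap of 50%, a limit of 10 kb, windows of 500 bp and 2 kb, counting a peak for every span it lies in, and 1 chosen after seeing the data.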

Additional observations from a re-analysis of the deposited data

Results flagged for a closer look

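The 2 maternal comparisons differed in direction for the number of peaks given to Crebbp. In CD offspring Crebbp had 2 peaks with CD mothers and 1 with WD mothers; in WD offspring it had 1 with CD mothers and 4 with WD mothers. The difference between these 2 differences was −4 peaks. It was not tested, since each group had 1 list. The peaks behind it were the weak ones inside the gene, with 16 to 26 summit reads and −log10 q from 1.68 to 4.65. With peaks of −log10 q of at least 5 alone, CDM-CDO and WDM-WDO each had 1 Crebbp peak, the start peak.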

How the results depend on the processing

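Of 80 alternative values for counts over the 10 genes, 61 stayed within 1.5 times the count reported and 19 did not. With −log10 q of at least 5, the peaks of these genes were 9 in CDM-CDO and 14 in WDM-WDO, where the report has 16 and 22. Under that threshold the lost regions for WDM-CDO against CDM-CDO were 0 of 18 (against 5.63% of all regions). For WDM-WDO against CDM-WDO they were 0 of 12 (against 4.44%). For CDM-WDO against CDM-CDO they were 1 of 12 (8.33%, against 35.4%). The added regions were 1 of 12 for WDM-WDO against CDM-WDO (8.33%, against 40.6%) and 0 of 18 for WDM-WDO against WDM-CDO (against 17.2%). Those for WDM-CDO against CDM-CDO stayed at 9, now of 18 (50%, against 23.5%). For CDM-WDO against CDM-CDO 3 of 12 were added (25%, against 8.96%), and for WDM-WDO against WDM-CDO 6 of 18 were lost (33.3%, against 23.4%). With every list cut to its strongest 18962 peaks, the added regions for WDM-WDO against CDM-WDO were 2 of 16 (12.5%, against 29.4%). For WDM-WDO against WDM-CDO they were 2 of 20 (10%, against 21.0%). The lost regions were 3 of 17 for CDM-WDO against CDM-CDO (17.6%, against 30.5%) and 5 of 20 for WDM-WDO against WDM-CDO (25%, against 21.3%). Added regions for WDM-CDO against CDM-CDO stayed at 9, now of 22 (40.9%, against 16.6%). Keeping only regions expected at 2 or more times the reads a call needed, a choice made after seeing the data, left 1 added and 0 lost for WDM-CDO against CDM-CDO, 0 and 0 for WDM-WDO against CDM-WDO, 1 and 0 for CDM-WDO against CDM-CDO, and 0 added and 1 lost for WDM-WDO against WDM-CDO. These settings keep fewer peaks or regions by their construction, and whether the shares differ from those of all regions was not tested. Start or end peaks within 500 bp were at 4, 7, 4 and 4 of the 10 genes in CDM-CDO, WDM-CDO, CDM-WDO and WDM-WDO. Over all protein-coding genes the shares at 500 bp were 48%, 50.8%, 40.2% and 47.1%, in the same order. Within 2 kb the counts were 8, 10, 7 and 8 of the 10 genes, against 50.9%, 54.3%, 43.1% and 50.7% of all genes. At 2 kb Bahcc1 (CDM-CDO, CDM-WDO) and Dot1l (WDM-WDO) no longer had a start peak in WDM-CDO alone. Of 160 counts for single genes 141 stayed within 1.5 times; with a peak counted for every span it lies in, Hdac3 had 1 peak in each list. No paired analysis was possible because each group has 1 peak list, and for the same reason no replicate could be left out. Regions under 14 to 16 summit reads were not callable.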
